A study of Homo sapiens with 519 samples.

Results

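CETYLPYRIDINIUM_CHLORIDE and THONZONIUM_BROMIDE are cationic surfactants in which a long hexadecyl chain is attached to a permanently charged quaternary nitrogen. In cetylpyridinium chloride that nitrogen belongs to a pyridinium ring, and in thonzonium bromide it is an ammonium that also carries an amine with methoxybenzyl and pyrimidine groups. They were chosen by name from the screened compounds, and they account for 4 of the 519 RNA-seq libraries of the study. Each compound has 2 wells, one on plate R1 and one on plate R2, with a labelled dose of 2 for cetylpyridinium chloride and 1 for thonzonium bromide; the labels give no unit for these doses. The cells were SK-N-BE(2), an established human neuroblastoma line with amplified MYCN, and all wells were exposed for 24 h. The reference was 8 DMSO wells, 4 on each plate, and 4 further wells without DMSO were used as a control comparison. The treatment protocol gives 0.1% DMSO in the compound dilutions. The screen held 90 compounds on these plates, each picked for selectivity towards MYCN-amplified lines and given at a concentration meant to inhibit growth mildly. Because the labelled doses of the surfactants differ, their values against DMSO are set side by side and neither compound was tested against the other.

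Surfactants of this class insert into lipid bilayers and are used as antiseptics. Cells that sense amino acid shortage, misfolded protein in the endoplasmic reticulum, haem deficiency or mitochondrial disturbance phosphorylate the translation factor eIF2alpha, which lowers general translation and favours translation of the transcription factor ATF4. ATF4 and its partners then raise genes for amino acid synthesis, among them the asparagine synthetase ASNS, and for amino acid uptake and tRNA charging. They also raise the regulators DDIT3 (also called CHOP) and TRIB3. This programme is called the integrated stress response.

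ATF4 and C/EBP proteins can bind a composite DNA element, searched here as the letters TGATGNAA on both strands of the 250 bases before each gene's RefSeq start (GRCh38.p14). Of the genes higher with cetylpyridinium chloride, 132 had such a window and 8 held the letters (6.06%): ATF3, S100P, ASNS, LURAP1L-AS1, GOT1, CHAC1, HERPUD1 and KLHDC7B. No match was found in 71 lower genes with a window, against 1.3% of 10109 tested genes with a window and 3.19% of 27305 windows of all genes. ASNS, CHAC1 and HERPUD1 are shown because their values are given below, with the match in capitals on the strand of the gene and 25 bases on each side. They lie at chr7:97872444-97872501 (minus strand), chr15:40953237-40953294 (plus strand) and chr16:56931941-56931998 (plus strand), with the match 68, 209 and 176 bases before the start. The ASNS match lies inside the whole gene span given below, which reaches further upstream than the RefSeq start used here. A match describes these letters and is not a tested binding site.
ASNS: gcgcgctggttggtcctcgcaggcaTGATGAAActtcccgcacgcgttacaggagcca
CHAC1: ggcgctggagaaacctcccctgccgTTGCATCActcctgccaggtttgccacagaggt
HERPUD1: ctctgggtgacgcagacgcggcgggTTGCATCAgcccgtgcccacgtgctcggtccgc

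Total counts were 835372 (plate R1) and 1706497 (plate R2) for cetylpyridinium chloride, 2412001 and 852308 for thonzonium bromide, and 1683983 to 2607422 for the DMSO wells. The cetylpyridinium chloride well on plate R1 and the thonzonium bromide well on plate R2 were thus the 12th and 15th shallowest of 180 compound wells. Of 44267 genes in the table, 13438 were tested. Values below are CPM, counts divided by the scaled library size and put on one common total. Of the markers of neuroblast identity, on unscaled CPM, the granule protein CHGA had 413 and 446 CPM in cetylpyridinium chloride wells, below the DMSO wells of both plates. It had 566 and 548 CPM in thonzonium bromide wells and 498 to 704 CPM in DMSO wells. The transcription factor HAND2 had 130.5 and 94.9 CPM, 154 and 99.7 CPM, and 88.2 to 192.5 CPM in the same order; on plate R1 the cetylpyridinium chloride well was below the 151 to 192.5 CPM of the DMSO wells. The transcription factor GATA3 had 92.2 and 40.4 CPM with cetylpyridinium chloride, below the DMSO wells of both plates, 102 and 59.8 CPM with thonzonium bromide and 63.2 to 123 CPM in DMSO wells. DBH, which makes noradrenaline, was at 0 in both cetylpyridinium chloride wells and reached no more than 4.46 CPM in DMSO wells. The summed level of 18 markers of other cell types was 572 to 578, 582 to 667 and 500 to 699 CPM in the wells of cetylpyridinium chloride, thonzonium bromide and DMSO, mostly COL1A1 and ACTA2, and 13 of the 18, among them PTPRC, ALB, KRT5 and KRT14, were at 0 in the wells of either compound. In bulk wells, fewer cells of a type and less RNA per cell cannot be told apart.

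Cetylpyridinium chloride raised the integrated stress response genes strongly on both plates. Of 13438 genes, 262 passed an adjusted p under 0.05 (edgeR quasi-likelihood test, plate as block, Benjamini-Hochberg over all genes), which is 1.95% of the genes tested. The 175 higher genes were 1.3% and the 87 lower genes 0.647%. Of the called genes, which were chosen from the same wells, 252 also had each well beyond all 4 DMSO wells of its own plate. This count describes the calls and is not separate evidence for them. Among all genes tested, 7.73% had both wells above these and 9.18% both wells below. With thonzonium bromide only 6 genes passed, all higher (0.0446% higher, 0.0% lower, 0.0446% in either direction). An unadjusted p under 0.05 (edgeR) was reached by 917 of the 13438 genes. This number was 1687 with cetylpyridinium chloride and 753 for the wells without DMSO. DESeq2 called 19 genes for thonzonium bromide. The wells without DMSO, set against the DMSO wells as a measure of calls without a compound, gave 7 genes (0.0521%), of which 4 were higher. That comparison had 4 wells against 8, while each surfactant had 2 against 8, and it includes any effect of DMSO itself. Its counts are therefore not matched to those of the surfactants. The DMSO wells are the same in all these comparisons.

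DDIT3, a transcription factor that promotes cell death under prolonged stress (chromosome 12, 57516588 to 57520517, GRCh38), had 147.5 CPM on plate R1 and 145.3 CPM on plate R2 with cetylpyridinium chloride, against a lowest of 16.9, a median of 29.2 and a highest of 37.0 CPM in the 8 DMSO wells. The groups did not overlap, and the log2 change was 2.47 ± 0.27 (SE, adjusted p = 7.51e-13). TRIB3, a pseudokinase that feeds back on this response (chromosome 20, 380760 to 397559), had 40.2 and 22.8 CPM, against 0.883, 2.03 and 5.36 CPM (lowest, median, highest) in DMSO wells. Its log2 change was 3.71 ± 0.46 (SE, adjusted p = 7.35e-11). ASNS, which makes asparagine (chromosome 7, 97851677 to 97928441), had 63.7 and 27.1 CPM, against 0.609, 7.75 and 12.6 CPM in DMSO wells, a log2 change of 2.50 ± 0.36 (SE, adjusted p = 6.52e-08). All 3 therefore set the cetylpyridinium chloride wells apart from the DMSO wells, but not from the rest of the screen. By log2 change, cetylpyridinium chloride ranked 15th of 90 compounds for DDIT3, 4th for TRIB3 and 9th for ASNS. The change exceeded 1 with 38, 19 and 22 of the 90 compounds in the same order, cetylpyridinium chloride included.

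DDIT3, TRIB3 and ASNS did not set the thonzonium bromide wells apart from the DMSO wells. DDIT3 had 14.6 and 41.3 CPM there, one well below and one above the DMSO wells of its plate, and a log2 change of -0.12 (95% interval -0.84 to 0.60, adjusted p = 0.972, edgeR). TRIB3 had 1.67 and 2.43 CPM and a log2 change of -0.72 (interval -2.47 to 1.03, adjusted p = 0.928, edgeR). ASNS had 19.2 CPM on plate R1, above the 4.76 to 12.6 CPM of the DMSO wells there, and 1.21 CPM on plate R2, within the DMSO range. Its log2 change was 0.60 (interval -0.26 to 1.46, adjusted p = 0.861, edgeR). The intervals for DDIT3, TRIB3 and ASNS leave room for changes of up to 0.60, 1.03 and 1.46 on the log2 scale. MYCN, the amplified oncogene of this line, had 186.5 and 44.3 CPM with cetylpyridinium chloride, 220.1 and 231.7 CPM with thonzonium bromide and 49.6 to 198.7 CPM in DMSO wells. Its log2 changes were -0.30 and 0.85, and neither passed (adjusted p = 0.904 and 0.852, edgeR).

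**Figure D1:**
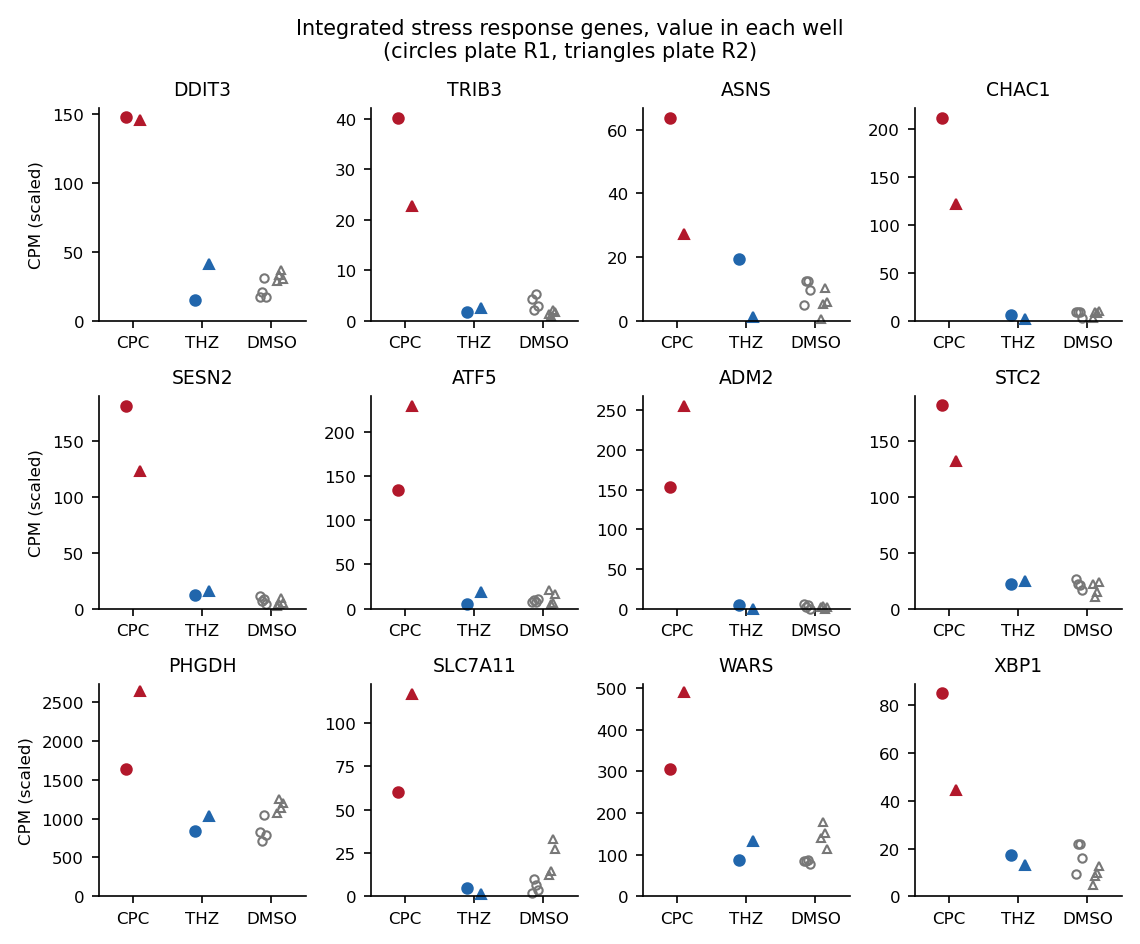
Each panel shows 1 gene in scaled CPM (linear axis from 0), with cetylpyridinium chloride (CPC) and thonzonium bromide (THZ) wells left of the 8 DMSO wells; circles are plate R1 and triangles plate R2. In all 12 panels both cetylpyridinium chloride wells lie above the DMSO wells of their plates.

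Among 13 regulators of the ATF4 and CHOP arm, 11 rose with cetylpyridinium chloride and none fell, with a median log2 change of 2.75 against -0.10 over all genes tested. CHAC1, which breaks down glutathione, had 211 and 122 CPM, against 2.44 to 9.75 CPM in DMSO wells (log2 change 4.51 ± 0.32, SE, adjusted p = 7.72e-25, edgeR). SESN2, a stress-induced brake on mTORC1, had 182 and 124 CPM, against 1.83 to 10.8 CPM (log2 change 4.54 ± 0.32, SE). DDIT4, another mTORC1 inhibitor, had 495 and 269 CPM, against 12.0 to 47.1 CPM. The transcription factor ATF5 had 134 and 230 CPM, against 5.30 to 20.7 CPM, and was higher than with any other of the 90 compounds (log2 change 4.12). ATF4 itself rose by 1.55 on the log2 scale but did not pass without the well on plate R2 (adjusted p = 0.234, edgeR), and CEBPG and CEBPB did not pass (adjusted p = 0.0884 and 0.711, edgeR). Leaving out the cetylpyridinium chloride well on plate R1 left 12 of the 13 called, and leaving out the well on plate R2 left 10.

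None of the 13 regulators passed with thonzonium bromide (median log2 change -0.05), and 0 had an unadjusted p under 0.05. CHAC1 had 6.27 and 1.21 CPM in its wells (log2 change -0.87, 95% interval -2.15 to 0.40). ATF5 had 5.43 and 18.2 CPM (log2 change -0.05, interval -1.18 to 1.08), and DDIT4 had 32.2 and 14.6 CPM (log2 change -0.24, interval -1.12 to 0.63). SESN2 had 11.7 and 15.8 CPM, each above the DMSO wells of its plate, with a log2 change of 0.98 (interval -0.03 to 2.00, adjusted p = 0.746, edgeR). Across the 90 compounds, the median of this list ranked 10th for cetylpyridinium chloride and 80th for thonzonium bromide, with a median over compounds of 0.47 and a top value of 3.99 for ISOPOMIFERIN.

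All 5 tested members of the list of stress-secreted factors rose, with a median log2 change of 6.05. ADM2, a peptide hormone also called intermedin, had 153 and 255.5 CPM, against 0 to 5.20 CPM in DMSO wells. GDF15, a circulating stress cytokine, had 57.0 and 27.1 CPM and no count in any DMSO well, which puts it at least 214-fold higher when 3 counts over the DMSO wells are taken as the floor. INHBE, an activin subunit, had 40.2 and 40.6 CPM, against 0 to 2.44 CPM. STC2, a secreted glycoprotein, had 182 and 132 CPM, against 10.2 to 26.4 CPM. With GDF15 set at its bound of 7.74 on the log2 scale the list median stayed at 6.05. DESeq2 did not call GDF15 (adjusted p = 0.166). In thonzonium bromide wells ADM2 had 4.59 and 0 CPM, GDF15 had 0 and 1.21 CPM, INHBE had 0 CPM in both and STC2 had 21.7 and 24.3 CPM, and none passed. By fitted change of ADM2 and GDF15, cetylpyridinium chloride ranked 3rd of 90 compounds for each. Rises of these genes were common in the screen: the fitted log2 change exceeded 1 with 60 of the 90 compounds for each. The median over compounds was 1.61 for ADM2 and 3.07 for GDF15, which had no DMSO count to compare with.

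Of 12 tested genes of serine, one-carbon and asparagine synthesis, 8 rose and none fell (median log2 change 1.43). PHGDH, which starts serine synthesis, had 1639 and 2636 CPM, against 714 to 1252 CPM in DMSO wells, and SHMT2, a mitochondrial serine hydroxymethyltransferase, had 106 and 195 CPM, against 40.6 to 67.9 CPM, and did not pass without the well on plate R2 (adjusted p = 0.216, edgeR). Of 10 amino acid transporters, 5 rose and none fell (median 1.47, or 1.02 without SLC7A3, which had 2 counts in all). The glycine transporter SLC6A9 had 32.4 and 46.8 CPM, against 0 to 5.37 CPM, and the cystine transporter SLC7A11 had 60.3 and 117 CPM, against 1.73 to 32.9 CPM. Of 13 cytosolic tRNA synthetases, 7 rose and none fell. WARS (tryptophan) had 305.0 and 489.5 CPM, against 78.5 to 178 CPM, CARS (cysteine) had 378 and 174 CPM, against 20.3 to 79.3 CPM, and SARS (serine) had 651 and 671 CPM, against 189 to 335 CPM. The median log2 change of the synthetases, 1.13, was the highest among the 90 compounds. GRAMICIDIN (1.09), ISOPOMIFERIN (1.07), IVERMECTIN (1.05) and Chloroxine (1.04) were close below. These lists held 5, 4 and 6 called genes without the well on plate R1, and 6, 2 and 5 without the well on plate R2.

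With thonzonium bromide no member of these 3 lists passed, and their median log2 changes were 0.03, -0.06 and -0.15. In the same order, 1, 1 and 0 members had an unadjusted p under 0.05 (edgeR), beside 917 of all 13438 genes tested. For 1 member of the first list both wells lay above the DMSO wells of their plates, beside 4.87% of all genes tested. PHGDH had 837 and 1031 CPM in thonzonium bromide wells (log2 change -0.10, 95% interval -0.43 to 0.24), and WARS had 86.5 and 133.5 CPM (log2 change -0.05, interval -0.46 to 0.35).

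The unfolded protein response senses misfolded protein in the endoplasmic reticulum. Of its 16 tested members, 4 rose and none fell (median log2 change 0.61). XBP1, the factor spliced by IRE1, had 84.9 and 44.3 CPM, against 4.87 to 21.9 CPM in DMSO wells. HERPUD1 and SEL1L, which act in degradation from the endoplasmic reticulum, had log2 changes of 2.24 ± 0.45 and 1.73 ± 0.43 (SE), and HSPA5, its main chaperone, 0.79 ± 0.23 (SE, adjusted p = 0.0488, edgeR). Only 1 member was called without the well on plate R2, and 1 in the fit without the plate block.

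NABP1, a single-strand DNA binding protein, was among the largest rises by the naming rule but rested on 1 well: it had 4.47 CPM on plate R1 and 170 CPM on plate R2, against 0.488 to 4.06 CPM in DMSO wells, and did not pass without the plate R2 well (adjusted p = 0.984, edgeR). HMOX1, the haem-degrading NRF2 target, had 38.0 and 67.1 CPM, against 0 to 19.9 CPM in DMSO wells (log2 change 3.19, adjusted p = 2.30e-09, edgeR; DESeq2 adjusted p = 0.081), and 2 of 16 NRF2 genes rose in all. The pro-apoptotic BBC3, also a p53 target, had 20.1 and 17.2 CPM, against 0 to 4.59 CPM, but DESeq2 did not call it (adjusted p = 0.289). Of 12 tested p53 targets 2 rose and 1 fell, and with either well left out 1 rose and none fell. JUND and JUN rose by 1.48 and 1.23 on the log2 scale; JUND did not pass without the well on plate R2 (adjusted p = 0.204) and JUN without the well on plate R1 (adjusted p = 0.118, edgeR). No member passed among 21 genes of cholesterol synthesis and uptake, 10 of fatty acid synthesis or 13 of choline and phospholipid synthesis. None passed among 15 of membrane repair or 15 of heat shock. In the same order, unadjusted p values (edgeR) were under 0.05 for 2, 2, 2, 2 and 0 members, beside 1687 of all 13438 genes tested. DESeq2 called 1 fatty acid, 1 phospholipid and 1 membrane repair gene. In the lysosome and autophagy list SQSTM1 alone passed (60.3 and 60.3 CPM, against 19.0 to 35.5 CPM), and with either well left out it did not (adjusted p = 0.182 and 0.206, edgeR).

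**Figure D2:**
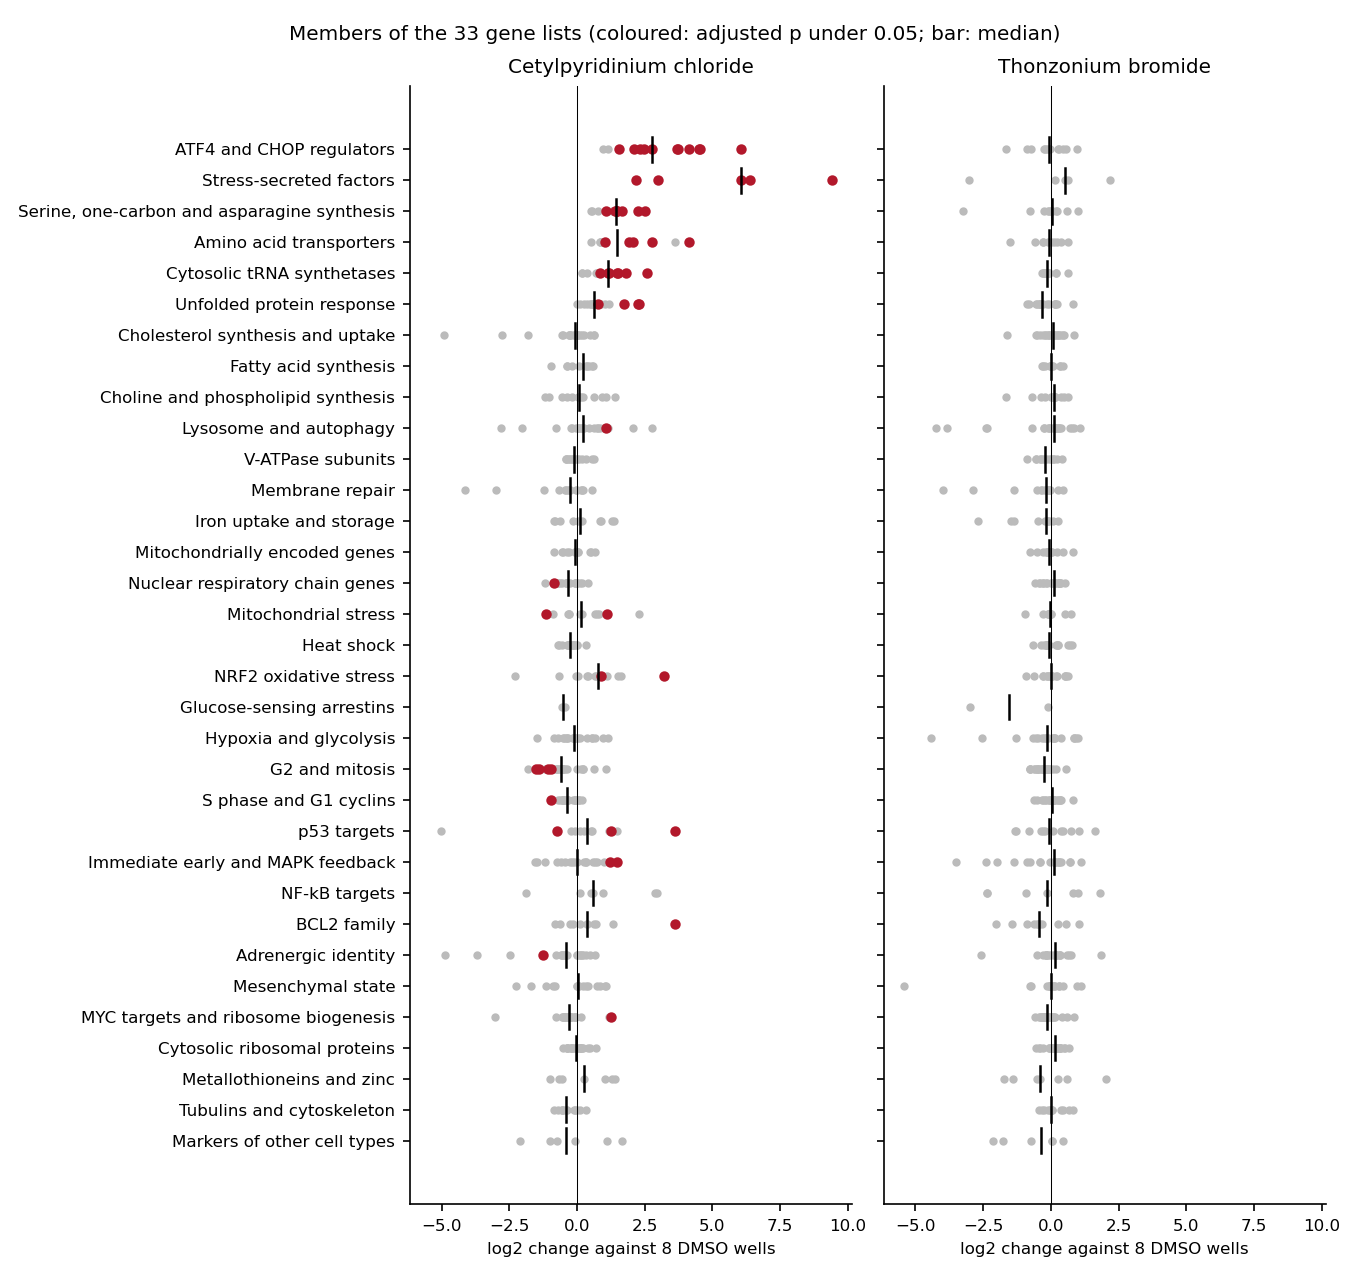
Each row is 1 gene list and each dot 1 tested member, placed by its log2 change against the 8 DMSO wells for cetylpyridinium chloride and for thonzonium bromide; coloured dots have an adjusted p under 0.05 and the bar is the list median. The coloured dots gather in the first 6 lists for cetylpyridinium chloride, and no list member is coloured for thonzonium bromide.

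Falls were fewer. Of 24 genes of G2 and mitosis, 4 fell and none rose (median log2 change -0.60, 68th of 90 compounds from the highest). This count was not stable: without the well on plate R1 no member fell and 1 rose, without the well on plate R2 1 fell, and without the plate block none fell. CCNB1, the mitotic cyclin, had 72.6 and 46.2 CPM, against 81.4 to 181 CPM in DMSO wells, and KIF20A, a kinesin of cytokinesis, had 30.2 and 17.9 CPM, against 26.2 to 95.6 CPM. PLK1 had 160 CPM on plate R1 and 895 CPM on plate R2, against 585 to 1529 CPM, and it did not pass without the well on plate R1 (adjusted p = 0.797, edgeR). With either well left out KIF20A did not pass (adjusted p = 0.141 and 0.194) and neither did CCNB1 (adjusted p = 0.146 and 0.0986, edgeR). PEG10, a retrotransposon-derived gene, had 57.0 and 65.3 CPM, against 173 to 675 CPM, the largest fall by the naming rule, and did not pass without the well on plate R2 (adjusted p = 0.0587, edgeR). The transcription factor HAND1 alone passed among 21 adrenergic identity genes, with a fall of 1.26 on the log2 scale. It did not pass without the well on plate R1. Of the 21 genes, 7 had a positive change, and the median log2 change was -0.40. Cytochrome c (CYCS) fell by 0.86 and did not pass with either well left out (adjusted p = 0.229 and 0.0778, edgeR). MT-TT, the mitochondrial threonine tRNA, had 7.82 and 17.2 CPM, against 36.8 to 113 CPM, and MT-TH, the histidine tRNA, had 6.70 and 8.62 CPM, against 13.0 to 50.8 CPM. MT-TT did not pass without the well on plate R1 (adjusted p = 0.188), and MT-TH did not with either well left out (adjusted p = 0.156 and 0.732, edgeR). The calcium-binding protein SCGN had 16.8 and 11.1 CPM, against 24.3 to 121 CPM (adjusted p = 0.0142, edgeR), and did not pass with either well left out (adjusted p = 0.0662 and 0.656).

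The 2 cetylpyridinium chloride wells resembled each other. Across 3731 genes with a mean of at least 30 CPM, the differences of the plate R1 well and the plate R2 well from the DMSO mean of their own plates had a Pearson r of 0.479, 22nd highest of 90 compounds (median 0.22). For thonzonium bromide this r was 0.0213, 71st of 90. Between the surfactants, taking 1 compound from each plate so that no control well is shared, r was 0.0816, 1236th of 4005 pairs, with a median of 0.033 over all pairs. These r values are across genes and depend on depth. The closest compounds to cetylpyridinium chloride by this measure were Chloroxine (0.431), ISOPOMIFERIN (0.376), IVERMECTIN (0.36) and GRAMICIDIN (0.354), and to thonzonium bromide TOREMIFENE CITRATE (0.273).

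**Figure D3:**
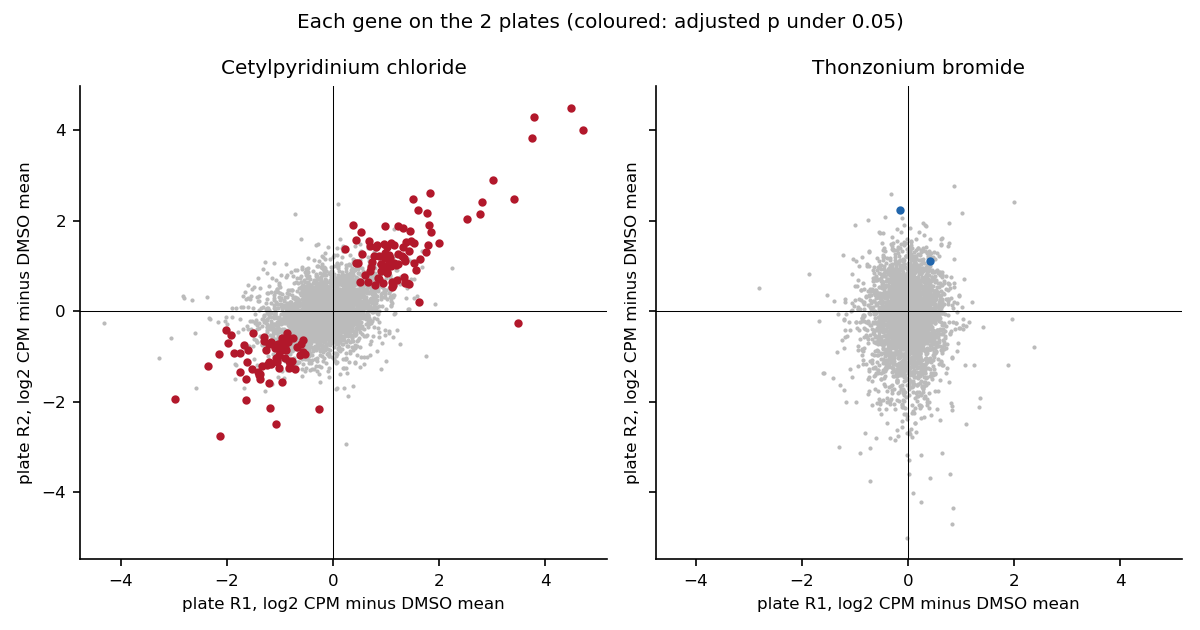
Each dot is 1 of 3731 genes, placed by the log2 CPM of the compound well minus the DMSO mean of the same plate, on plate R1 (x) and plate R2 (y); coloured dots have an adjusted p under 0.05, and of the 6 genes called with thonzonium bromide those under 30 CPM are not drawn. The cloud runs along the diagonal for cetylpyridinium chloride and mainly along the plate R2 axis for thonzonium bromide.

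For thonzonium bromide, the well on plate R2 had a wider spread of differences (SD 0.762 on the log2 scale) than the well on plate R1 (0.363), beside counts of 852308 and 2412001; whether depth plays a part was not tested. Both wells lay above all DMSO wells of their plates for 654 genes (4.87%) and below for 708 (5.27%); for cetylpyridinium chloride the shares were 7.73% (1039 genes) and 9.18%. Of the 6 genes called for thonzonium bromide, FAM107A was counted in 1 well only, with 59.7 CPM on plate R1, 0 CPM on plate R2 and 0 to 0.573 CPM in DMSO wells. DCD, the sweat gland peptide dermcidin, had 37.2 and 397 CPM, against 0 to 35.0 CPM in DMSO wells. Its log2 change exceeded 1 with 22 of the 90 compounds. PAQR4 had 12.1 and 103 CPM, against 4.98 to 16.8 CPM. SNRPD1, a spliceosome core protein, had 112 and 527 CPM, against 89.2 to 137 CPM, so it overlapped on plate R1. The log2 changes were 4.00 ± 0.64 for DCD, 2.16 ± 0.47 for PAQR4 and 1.39 ± 0.27 for SNRPD1 (SE), and DCD, PAQR4 and SNRPD1 did not pass without the plate R2 well, where the change of SNRPD1 was -0.15. FAM107A did not pass without the plate R1 well (log2 change -1.73). RNASEH1, which cleaves RNA in RNA-DNA hybrids, came next with 74.3 and 195 CPM, against 44.6 to 84.0 CPM, and did not pass (adjusted p = 0.0582, edgeR). Among falls that did not pass, cystatin C (CST3) had 261.5 and 143 CPM, against 287 to 410.3 CPM (adjusted p = 0.137, edgeR). Without the well on plate R1 69 genes were called, and without the well on plate R2 1 gene was called.

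**Figure D4:**
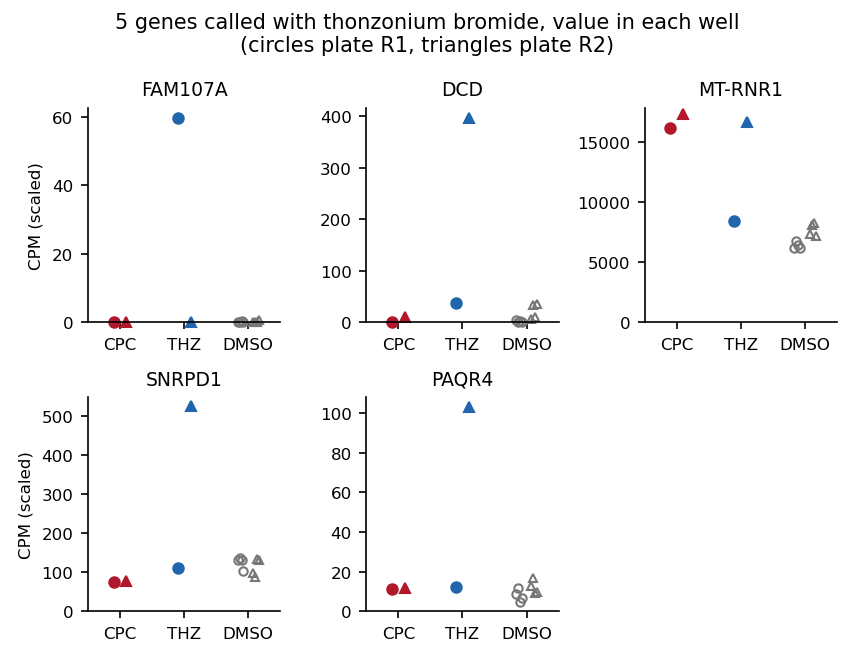
Each panel shows 1 of 5 genes called with thonzonium bromide in scaled CPM (linear axis from 0), with cetylpyridinium chloride (CPC) and thonzonium bromide (THZ) wells left of DMSO wells; circles are plate R1 and triangles plate R2. In 4 panels 1 of the 2 thonzonium bromide wells stands far above the other, and MT-RNR1 is high in all 4 surfactant wells relative to their plates.

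MT-RNR1, the small ribosomal RNA of mitochondria, was higher with either surfactant. It had 16196 and 17325 CPM with cetylpyridinium chloride, 8437 and 16705 CPM with thonzonium bromide, and 6154 to 6777 CPM (plate R1) and 7210 to 8258 CPM (plate R2) in DMSO wells. All 4 surfactant wells lay above the DMSO wells of their plates, and the log2 changes were 1.26 (adjusted p = 2.06e-11) and 0.81 (adjusted p = 9.98e-04, edgeR). MT-RNR1 with thonzonium bromide did not pass without the well on plate R2 (log2 change 0.37), nor in the fit of the compared libraries alone (adjusted p = 0.116). MT-RNR2, the large ribosomal RNA, changed by 1.04 (adjusted p = 1.17e-04, or 0.0501 without the well on plate R1) and 0.47 (adjusted p = 0.66, edgeR). None of 13 mitochondrially encoded protein genes passed with either compound, but 1 was called lower with cetylpyridinium chloride by DESeq2, in the compared libraries alone and without the well on plate R2. Among the 90 compounds the change of MT-RNR1 ranked 9th for cetylpyridinium chloride and 18th for thonzonium bromide.

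**Figure D5:**
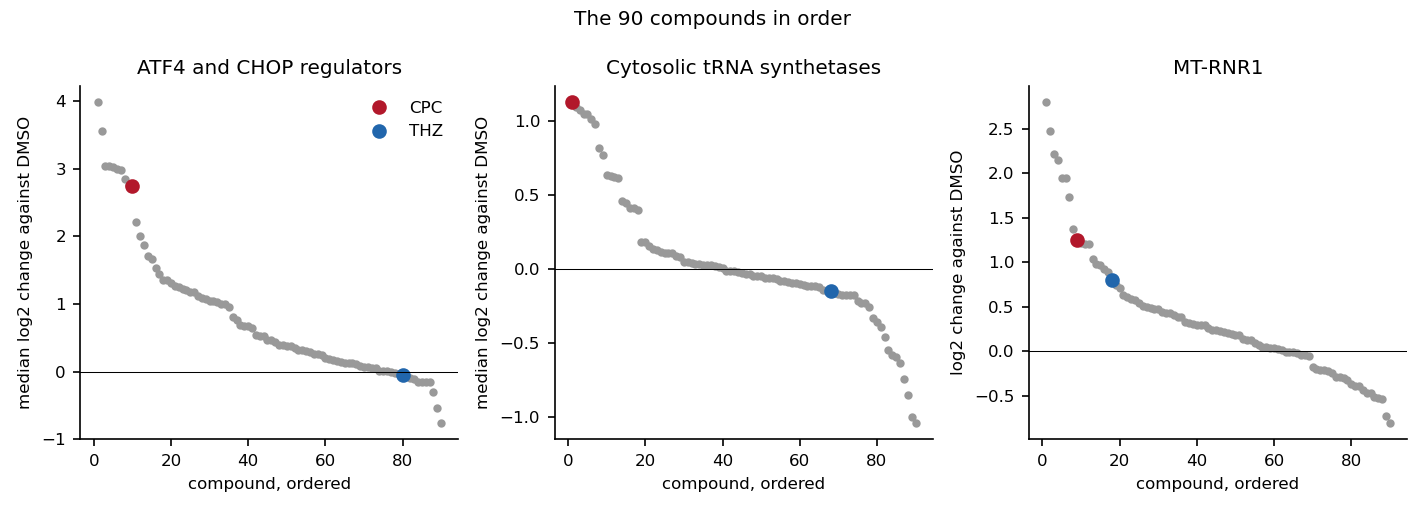
The 90 compounds are ordered from high to low (x axis) by the median log2 change of 2 gene lists and by the log2 change of MT-RNR1 against DMSO (y axis), with cetylpyridinium chloride (CPC) and thonzonium bromide (THZ) marked. Cetylpyridinium chloride is 10th for the ATF4 and CHOP regulators and 1st for the tRNA synthetases (1.13), closely followed by GRAMICIDIN (1.09).

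The mean of both surfactants, a test over 4 wells against 8, called 79 genes (0.588%), of which 55 were higher (0.409%) and 24 lower (0.179%). Over all 13438 genes, all 4 wells lay above the DMSO wells of their plates for 108 genes and below for 156. Among the 79 called genes, which were chosen from the same wells, 33 had all 4 wells beyond the DMSO wells. SESN2 was among these, with 11.7 and 15.8 CPM in thonzonium bromide wells. So was FAIM2, an inhibitor of Fas-mediated death, with 121 and 169 CPM with cetylpyridinium chloride, 47.2 and 72.8 CPM with thonzonium bromide and 28.9 to 60.8 CPM in DMSO wells (log2 change 1.21, adjusted p = 9.86e-05, edgeR). The neuropeptide precursor VGF had 469 and 237 CPM, 217 and 187 CPM, and 48.7 to 202 CPM in the same order, with DMSO wells of plate R2 at no more than 92.2 CPM. TUBG1, the gamma-tubulin of the centrosome, had 32.4 and 91.1 CPM, 92.7 and 108 CPM, and 150 to 351 CPM. ASS1, which makes argininosuccinate, had 70.4 and 36.3 CPM, 29.2 and 15.8 CPM, and 6.09 to 26.0 CPM. The mitotic kinase AURKB had 15.6 and 22.8 CPM, 18.8 and 40.0 CPM, and 29.0 to 65.9 CPM, and passed in neither compound alone. DNAJC8 had 278 and 412 CPM, 381 and 257 CPM, and 495 to 1089 CPM. With 1 well left out, TUBG1, DNAJC8, ASS1 and AURKB each failed to pass in at least 1 of the 4 fits (highest adjusted p = 0.14, 0.165, 0.0987 and 0.323, edgeR). A mean over the compounds does not show that each of them changed a gene: DDIT3 passed here (adjusted p = 5.52e-03, edgeR) while its thonzonium bromide wells lay on either side of the DMSO wells.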

How the data were processed

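The deposited values are raw counts per gene symbol in 192 libraries of the first experiment, which the authors aligned with STAR to GRCh38 per the submitters' processing notes; versions, the counter and molecular identifiers are not given in the sources used here. The 92 spike-in rows were kept out of library sizes. They exceeded 0.01% of counts in 97 of 192 wells, so they were not used to scale. The model was edgeR 4.0.16 (R 4.3.3), with filterByExpr with a minimum count of 10, TMM scaling, all groups in 1 glmQLFit with plate as block, and glmQLFTest, two-sided, adjusted over all genes. SE is the log2 change divided by the square root of F. Plates are the labels' replicates and nothing says that wells are separate cultures, so p-values measure the spread between wells. Deviations of same-plate wells of different compounds had a median correlation of 0.282 over 4005 pairs. No columns were identical and none was left unmapped. The 33 lists (514 genes, 473 tested) and the members were chosen with earlier results of these data known. Named genes are DDIT3, TRIB3, ASNS, MYCN, the 8 largest rises and falls past the threshold with wells apart on both plates and at least 30 CPM, and the 3 members with the smallest p of lists with 2 or more calls; further list members, MT-RNR2 and genes called for thonzonium bromide were added with their values known; where fewer than 8 passed, places went to the smallest unadjusted p. Simulated data with known changes served to test the scripts. Alternatives included DESeq2 1.42.0, RLE scaling and leaving out wells. Some genes that the rule names are not reported here.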

Additional observations from a re-analysis of the deposited data

Results flagged for a closer look

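Among the 73 genes named by rule, 6 had 1 DMSO well far from the other 7, where chance alone flags about 1 in 20 (3.65 here). The separate wells had 350.9 CPM for TUBG1, 67.9 CPM for SHMT2, 334.9 CPM for SARS, 19.9 CPM for HMOX1, 57.7 CPM for ZNF395 and 467.3 CPM for MYEOV2. For SHMT2, SARS and HMOX1 both cetylpyridinium chloride wells exceeded that well.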

How the results depend on the processing

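For cetylpyridinium chloride, 262 calls became 98 with no replicate block, 58 on plate R1 alone, 56 on plate R2 alone and 90 to 98 without 1 of its wells; the other settings gave 222 to 391. For thonzonium bromide, 6 calls became 51 with no low-count filter, 1 in the compared libraries only, 19 with DESeq2, 3 and 49 on plates R1 and R2 alone and 1 to 69 without 1 of its wells (no replicate block: 5). For the mean of both, 79 became 123 with no filter, 34 in the compared libraries, 127 with DESeq2, 14 with no replicate block, 14 and 10 on plates R1 and R2 alone and 28 to 60 without 1 well. For the wells without DMSO, 7 became 34 with no filter, 1 in the compared libraries, 2 with DESeq2 and 1 on plate R2 alone. The r of the cetylpyridinium chloride wells was 0.202 with all genes kept. Directions reversed for 2 genes called with thonzonium bromide: FAM107A (-1.37 on plate R2 alone, -1.73 to 8.64 without 1 of its wells) and SNRPD1 (-0.17 on plate R1 alone, -0.15 to 2.20 without 1 well). They also reversed for values that did not pass. MYCN with cetylpyridinium chloride was 0.29 on plate R1 alone and -1.22 to 0.32 without 1 of its wells. MYCN in the mean was -0.023 with all control wells and -0.20 to 0.58 without 1 well. With thonzonium bromide on plate R2 alone, and over the fits without 1 of its wells, DDIT3 was 0.40 and -0.63 to 0.43, TRIB3 0.76 and -1.17 to 0.88, and ASNS -2.10 and -2.06 to 0.90. The causes were not tested. A lone well is assumed to vary like the other groups. Leaving out each DMSO well was not run in the fit of all libraries; chosen after seeing the data, it was run in the compared libraries, with 184 to 214 (222 with all wells), 1 to 3 (1), 21 to 31 (34) and 0 to 2 (1) calls in the same order.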
